A study of Homo sapiens with 6 samples.

Results

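Serum response factor (SRF) and 9 genes of the actin cytoskeleton that SRF is known to control were followed in human cells expressing a polyphosphate kinase. The genes were taken by symbol from the deposited count table: SRF, ACTB, ACTG1, VCL, TAGLN, TPM1, MYL9, FLNA, ACTN1 and FHL2. All 10 were found among the 58051 genes of the table, and 9 of them had enough counts to be tested. The cells were HEK293T, a human embryonic kidney line carrying the SV40 T antigen. They were transfected either with the empty plasmid pcDNA3.1- (3 libraries) or with the same plasmid carrying ppk1, which encodes a bacterial enzyme that makes long chains of linked phosphate (3 libraries), and were collected 48 hours later. Both groups went through the transfection procedure. Transfection was transient, the labels give the plasmid amount as a range, and the share of cells that took up a plasmid was not analysed here. The libraries of each group are lettered B, C and D, and those of a letter are matched biological replicates.

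SRF is a DNA-binding protein of the MADS-box family that recognises a short element called the CArG box. It works with 2 kinds of partner. The myocardin-related factors MRTFA and MRTFB are held back by free actin monomers and move into the nucleus when actin polymerises, where they drive cytoskeletal genes with SRF. The ternary complex factors ELK1, ELK3 and ELK4 are phosphorylated by MAP kinases and drive immediate early genes such as EGR1. Because actin genes are themselves targets, the MRTF branch links the supply of actin to the state of the actin filaments.

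The CArG box reads CC, then 6 letters that are each A or T, then GG, and a match on one strand is also a match on the other. It was searched for in the RefSeq promoter windows of GRCh38.p14, which run from 250 bases before to 50 bases after an annotated transcript start. Windows were present for 7 of the 10 genes (SRF, ACTG1, VCL, TPM1, FLNA, ACTN1 and FHL2), and not for ACTB, TAGLN and MYL9. At least 1 match was found for 5 of the 7: SRF, ACTG1, FLNA, ACTN1 and FHL2. Of all 27305 genes with a window, 1.6% had a match, and of all 35116 windows 1.29% did. The members were chosen as known SRF targets, so their higher share follows in part from that choice. The 7 genes carry 14 windows, several per gene for some, and 7 of these held a match. The 150 bases before the start are shown for 3 genes whose level rose with ppk1 and for FHL2, whose level did not, with the box in capitals. FHL2 has 4 windows, of which 3 held a match, but 2 of these 3 overlap and hold the same box. FHL2 is shown at 2 of the starts with a match, and the window that held none is not shown.

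SRF, chr6:43171119-43171268, plus strand: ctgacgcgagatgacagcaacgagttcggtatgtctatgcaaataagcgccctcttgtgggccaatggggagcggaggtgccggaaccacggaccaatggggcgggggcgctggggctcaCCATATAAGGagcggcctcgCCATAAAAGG
ACTG1, chr17:81512800-81512949, minus strand: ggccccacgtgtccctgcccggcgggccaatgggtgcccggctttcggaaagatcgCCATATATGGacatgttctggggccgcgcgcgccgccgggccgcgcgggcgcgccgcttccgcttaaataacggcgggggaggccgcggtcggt
FLNA, chrX:154374635-154374784, minus strand: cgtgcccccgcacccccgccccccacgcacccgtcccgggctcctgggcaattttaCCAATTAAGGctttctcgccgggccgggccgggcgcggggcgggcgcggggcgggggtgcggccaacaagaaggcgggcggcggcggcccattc
FHL2, first start, chr2:105438514-105438663, minus strand: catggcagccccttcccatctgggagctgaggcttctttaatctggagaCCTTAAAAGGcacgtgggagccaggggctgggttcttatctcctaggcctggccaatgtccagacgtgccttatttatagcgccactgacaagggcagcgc
FHL2, second start, chr2:105399052-105399201, minus strand: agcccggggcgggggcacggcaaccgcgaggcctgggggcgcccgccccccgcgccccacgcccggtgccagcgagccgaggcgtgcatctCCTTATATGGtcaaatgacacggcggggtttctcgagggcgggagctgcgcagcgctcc

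The first of the 2 SRF windows held 2 boxes, CCATATAAGG and CCATAAAAGG, whose first bases lie 30 and 10 bases before the start. The second SRF window held no match and is not shown. Of all windows, 0.0313% held 2 or more. The box of ACTG1 (CCATATATGG) and that of FLNA (CCAATTAAGG) both began 94 bases before the start. FHL2 had CCTTAAAAGG at 101 bases and CCTTATATGG at 59 bases before its starts, so a matching promoter was found both for genes that rose and for a gene that did not. ACTN1 had a match in 1 of its 4 windows, outside the stretch shown for the others, and the single windows of VCL and TPM1 had none. A match describes the letters of the window. It is not evidence of binding, and boxes elsewhere in a gene were not searched.

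Transcript levels are given in CPM, the counts of a gene per 1e6 counts of its library after TMM scaling, and were tested with edgeR's quasi-likelihood test with the replicate letter as a block. A gene is said to have risen or fallen where its Benjamini-Hochberg adjusted p, over all 19574 genes tested, was below 0.05. Library depth was between 40851783 and 67122986 counts, and within every letter the ppk1 library had more counts. Of all genes tested, 9.08% changed: 4.04% rose and 5.04% fell (791 and 986 genes, or 422 and 933 with upper-quartile scaling). Markers listed for the HEK293 lineage, 7 genes among them NEFL, NEFM and PAX2, summed to between 270.4 and 380.9 CPM with the empty vector and between 246.8 and 293.4 CPM with ppk1. The neurofilament gene NEFL fell (log2 fold change -0.29, adjusted p 0.0079), and PAX8 had at most 1 count in any library. The part of these markers in the results was not tested. Fibroblast markers summed to between 20.4 and 25.3 CPM, most of it COL1A1, and blood markers to under 1 CPM, with CD3E at 0 in all but 1 library.

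Of the 9 genes tested, 4 rose with ppk1 and 0 fell: SRF itself, the cytoplasmic actins ACTB and ACTG1, and the filament cross-linker FLNA. Among all genes tested, 4.04% rose and 5.04% fell, and among those averaging 1000 counts or more, 5.86% rose and 3.05% fell. The rises of the 4 genes were between 1.23-fold and 1.36-fold. The other 5 (VCL, TAGLN, TPM1, ACTN1 and FHL2) did not pass the test, and MYL9 was not detectable. In whole-culture RNA, a change in the share of cells that carry a transcript and a change in its amount per cell cannot be told apart. The median log2 fold change of the 9 was 0.22, against 0.015 over all genes tested. All 9 were counted in every library of both groups. Levels of the ppk1 libraries lay wholly above those of the empty vector libraries for 6 of the 9. This was so for 13% of all genes tested, and for 18.4% of those averaging 1000 counts or more.

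**Figure D1:**
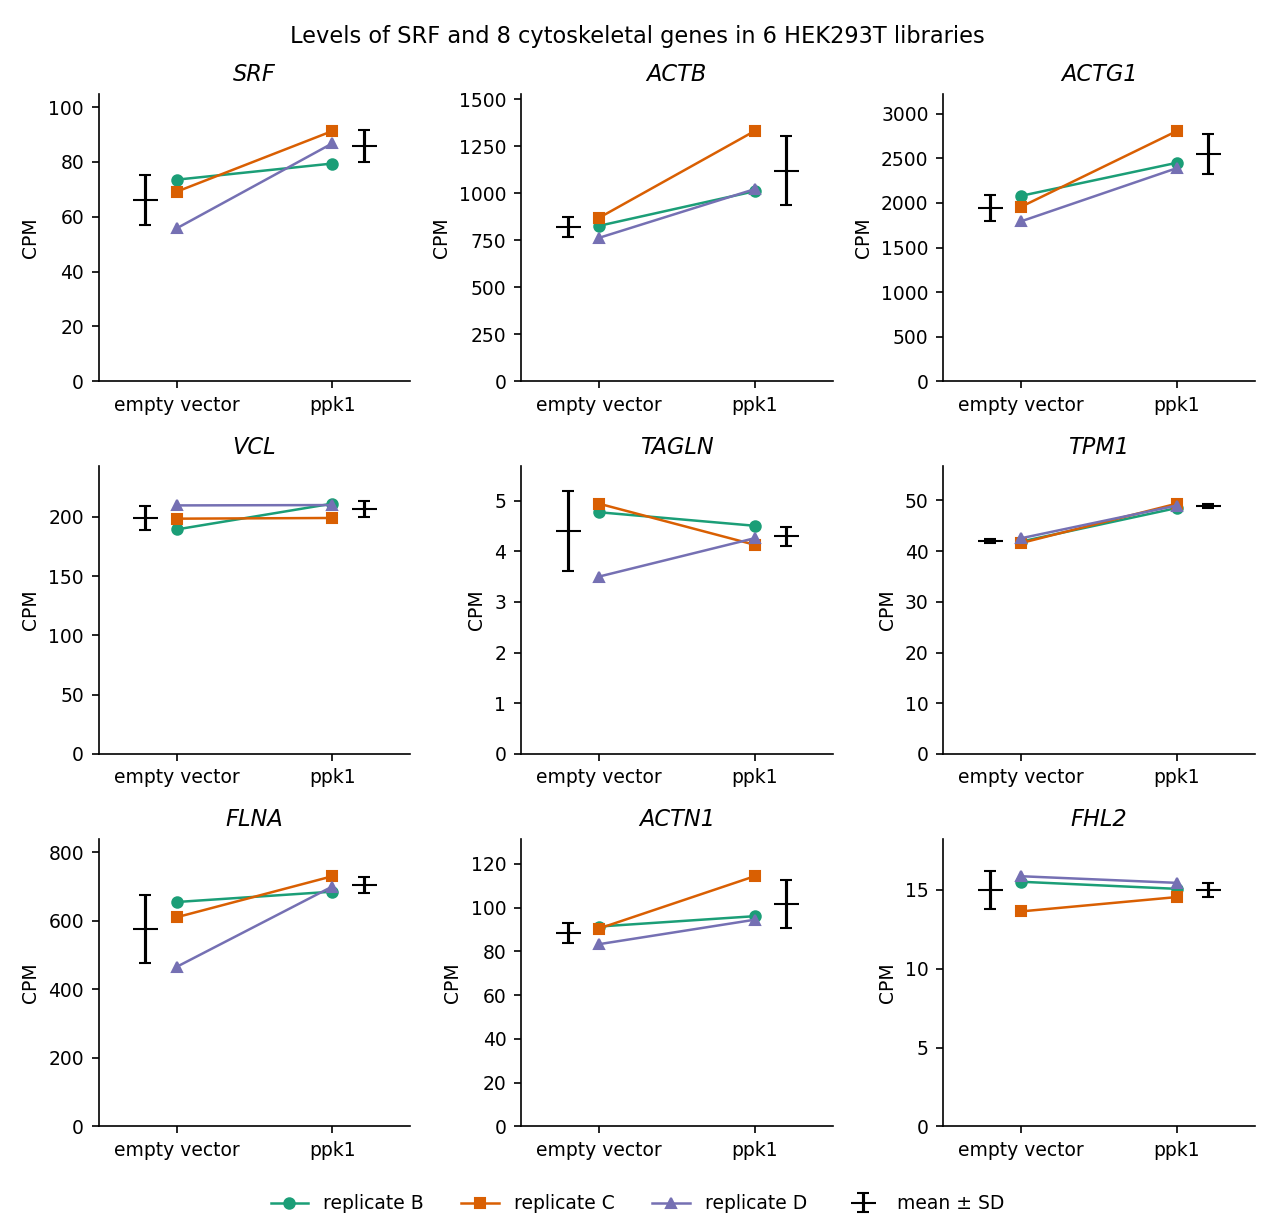
CPM of the 9 tested genes in the 6 libraries, with lines joining the matched libraries of each letter and black bars giving the group mean ± SD (n = 3 libraries). The groups stand apart for SRF, ACTB, ACTG1, TPM1, FLNA and ACTN1, and those of VCL, TAGLN and FHL2 overlap.

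SRF (ENSG00000112658, chromosome 6) was measured at 73.5, 69.1 and 55.7 CPM in the empty vector libraries B, C and D, and at 79.4, 91.2 and 86.8 CPM in the ppk1 libraries. The groups did not overlap, and the lowest level was that of the empty vector library D. The group means were 66.1 ± 9.25 and 85.8 ± 5.98 CPM (mean ± SD, n = 3 libraries). On the log2 scale SRF rose by 0.38 (SE 0.08, edgeR adjusted p 0.001). Within pairs B, C and D the log2 differences were 0.11, 0.40 and 0.64, so the rise differed widely between pairs.

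ACTB (ENSG00000075624, chromosome 7) encodes the cytoplasmic beta actin that most non-muscle cells use for their filaments. Its levels were 825.9, 868.2 and 762.0 CPM in the empty vector libraries and 1010.0, 1330.0 and 1021.0 CPM in the ppk1 libraries B, C and D. Every ppk1 library exceeded every empty vector library, and the ppk1 library C was the highest of the 6. ACTB rose by 0.44 on the log2 scale (SE 0.08, edgeR adjusted p 9e-05), the largest of the 9 genes. The pairs differed by 0.29, 0.62 and 0.42 on the log2 scale.

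ACTG1 (ENSG00000184009, chromosome 17) encodes the cytoplasmic gamma actin. It was measured at 2080, 1957 and 1794 CPM with the empty vector and at 2451, 2807 and 2391 CPM with ppk1. The groups did not overlap. ACTG1 rose by 0.39 on the log2 scale (SE 0.08, edgeR adjusted p 0.00088), with pair differences of 0.24, 0.52 and 0.41. ACTB shared 4.84% of its annotated transcript sequence, in stretches of 50 bases, with other genes, chiefly ACTG1, and ACTG1 shared 2.31%. Both genes also have processed pseudogenes, and the treatment of reads that fit several places is not given in the sources used here, so their levels carry that uncertainty.

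The summed counts of ACTB and ACTG1 made up 0.301%, 0.292% and 0.256% of the library with the empty vector in B, C and D. They made up 0.344%, 0.395% and 0.334% in the ppk1 libraries. The mean difference was 0.0748 percentage points, with SDs of 0.0242 and 0.0324 within the groups (n = 3). ACTB made up 28.4%, 30.7% and 29.8% of the 2 genes' counts with the empty vector and 29.2%, 32.2% and 29.9% with ppk1. This balance moved by 0.76 percentage points on average, less than the SD of either group (1.16 and 1.55). Within pairs B, C and D the ACTB part was higher with ppk1 by 0.75, 1.42 and 0.12 percentage points, and the shift was not tested.

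FLNA (ENSG00000196924, chromosome X) encodes filamin A, which joins actin filaments into networks and ties them to membrane receptors. Its levels were 654.6, 610.1 and 465.4 CPM in the empty vector libraries B, C and D and 684.8, 729.8 and 699.8 CPM in the ppk1 libraries. The groups did not overlap, although the empty vector library B lay close to the lowest ppk1 library. FLNA rose by 0.30 on the log2 scale (SE 0.08, edgeR adjusted p 0.011). The pair differences were 0.07, 0.26 and 0.59. FLNA and SRF thus shared the order of their pairs, with the smallest difference in B and the largest in D, whereas ACTB and ACTG1 differed most in C.

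TPM1 (ENSG00000140416, chromosome 15) encodes a tropomyosin, a rod-shaped protein that lies along actin filaments. It was measured at 41.9, 41.6 and 42.6 CPM with the empty vector and at 48.5, 49.4 and 49.0 CPM with ppk1. The groups were far apart compared with their SDs of 0.49 and 0.43 CPM (n = 3), and the pairs differed by 0.21, 0.25 and 0.20 on the log2 scale. The fitted log2 fold change was 0.22 with an SE of 0.075, and the edgeR adjusted p of 0.051 did not pass. The test does not use the gene's own spread alone, but shares information on the spread among genes. TPM1 overlaps 2 antisense transcripts, and whether the counting used the strand is not given in the sources used here.

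ACTN1 (ENSG00000072110, chromosome 14) encodes alpha-actinin 1, a cross-linker found in stress fibres and adhesion sites. Its levels were 91.3, 90.4 and 83.3 CPM with the empty vector and 96.1, 114.3 and 94.4 CPM with ppk1. The groups did not overlap, and the ppk1 library C stood above the other 5. The log2 fold change was 0.20 (SE 0.08, edgeR adjusted p 0.09), with pair differences of 0.07, 0.34 and 0.18.

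VCL (ENSG00000035403, chromosome 10) encodes vinculin, which couples actin to integrin and cadherin adhesions. Levels were 189.4, 198.5 and 209.7 CPM with the empty vector and 211.2, 199.1 and 210.0 CPM with ppk1. The groups overlapped, and the log2 fold change was 0.055 (SE 0.07, edgeR adjusted p 0.7). Pair B differed by 0.157 on the log2 scale, and pairs C and D by 0.004 and 0.002. VCL shares 11.1% of its exon sequence with AP3M1 on the opposite strand.

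FHL2 (ENSG00000115641, chromosome 2) encodes a LIM-domain protein that can bind SRF, and is itself an SRF target. It was measured at 15.5, 13.6 and 15.9 CPM with the empty vector and at 15.1, 14.5 and 15.4 CPM with ppk1. The groups overlapped fully. The log2 fold change was 0.003 (SE 0.087, edgeR adjusted p 0.99).

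TAGLN (ENSG00000149591, chromosome 11), which encodes transgelin, a calponin-related protein typical of smooth muscle, was low. Its levels were 4.77, 4.94 and 3.50 CPM with the empty vector and 4.51, 4.13 and 4.26 CPM with ppk1. The groups overlapped, and the pairs went both ways (-0.08, -0.26 and 0.28 on the log2 scale). The log2 fold change was -0.03 (SE 0.13, edgeR adjusted p 0.91), the least precise of the 9. TAGLN shares 11.4% of its exon sequence with PCSK7 on the opposite strand. MYL9 (ENSG00000101335, chromosome 20), which encodes a regulatory myosin light chain of smooth muscle and some non-muscle cells, had 0 counts in 5 libraries and 1 count in the ppk1 library D. A count of 0 allows up to 3 counts, which is between 0.0449 and 0.0734 CPM in these libraries and covers counting error only. MYL9 could therefore not be compared.

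**Figure D2:**
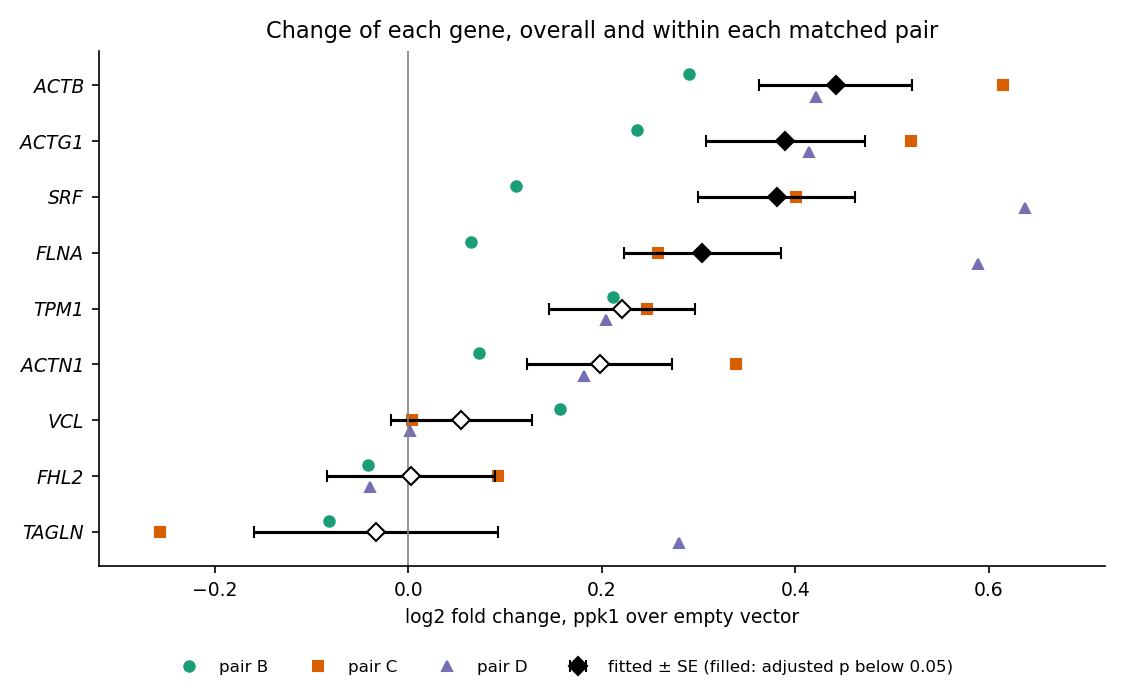
Log2 fold change of ppk1 over empty vector for the 9 tested genes, fitted over all libraries (diamonds ± SE, filled where the adjusted p was below 0.05) and within each matched pair (coloured symbols). TPM1 has the closest pairs (0.20 to 0.25), SRF and FLNA spread from near 0.1 in pair B to about 0.6 in pair D, and TAGLN has pairs on both sides of 0.

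Levels of different genes were compared per kilobase of merged exon, with exon lengths from GENCODE release 29. In the empty vector libraries ACTG1 was the most abundant at 650 ± 47.9 CPM per kilobase (mean ± SD, n = 3), followed by ACTB at 233 ± 15.2 and FLNA at 54.5 ± 9.35. VCL (19.9 ± 1.02) and SRF (15.7 ± 2.2) came next, then ACTN1 (8.31 ± 0.42), TPM1 (3.26 ± 0.04), FHL2 (2.26 ± 0.18) and TAGLN (1.13 ± 0.20). With ppk1, SRF and VCL stood at 20.4 and 20.7 CPM per kilobase and no longer differed beyond their spread. Merged exons count every annotated isoform, so a gene with many isoforms such as TPM1 is placed lower than its main transcript alone would place it.

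With the letter as a block 4 of the 9 genes rose, and without the block ACTB (edgeR adjusted p 0.043) and ACTG1 (0.04) still passed, whereas SRF (0.068) and FLNA (0.18) did not. The background share of genes that rose was 0.455% in that fit. Without replicate C, 0 of the 9 passed edgeR's test and 4 had an unadjusted p below 0.05: the log2 fold changes were 0.36 for ACTB (adjusted p 0.051), 0.33 for ACTG1 (0.079), 0.37 for SRF (0.076) and 0.33 for FLNA (0.11), and 0.415% of all genes rose. FLNA rested on replicate D as well, since its log2 fold change was 0.14 without it (adjusted p 0.27), and SRF was at 0.23 without D (adjusted p 0.033). DESeq2 with the block called the same 4 genes higher, with adjusted p between 3.5e-06 for ACTB and 0.029 for FLNA, where 1.89% of all genes rose. Without replicate B, 5 passed, with ACTN1 (0.26, adjusted p 0.036) added, and 6.5% of all genes rose.

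The 4 genes that rose are rich in G and C. The longest annotated transcripts of SRF, FLNA, ACTG1 and ACTB hold 61.0%, 62.3%, 57.8% and 55.1% GC, above the median of 48.5% for tested genes. TAGLN holds 57.2% and did not pass, but it was low and had the largest SE of the tested members (0.13). The part of GC content in the rises was not tested. The fit was also given offsets for GC and length of transcripts, an alternative chosen after the data were seen. The log2 fold changes of the 4 were smaller: SRF 0.305 (0.38 without offsets), ACTB 0.40 (0.44), ACTG1 0.33 (0.39) and FLNA 0.25 (0.30). All 4 passed edgeR's test with the offsets (adjusted p between 2.7e-05 and 0.0031). TPM1 (0.24, adjusted p 0.0024) and ACTN1 (0.19, adjusted p 0.019) passed as well in that fit, in which 8.06% of all genes rose.

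**Figure D3:**
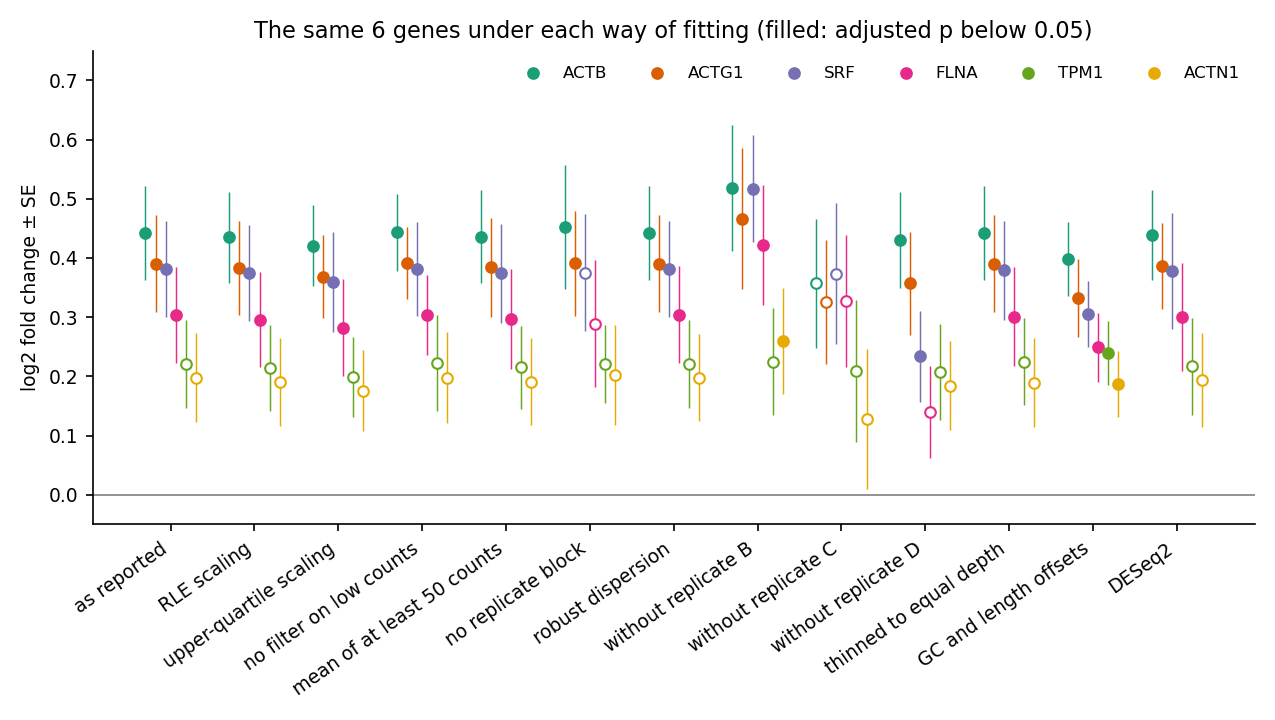
Log2 fold change ± SE of 6 genes under the reported fit and 12 alternatives, with filled circles where the adjusted p was below 0.05. All 6 stay above 0 in every fit, all are open circles without replicate C, and TPM1 and ACTN1 fill with the GC and length offsets.

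Of the 6 genes that encode partners of SRF, 5 were tested: ELK1 rose, ELK4 fell and 3 did not pass. Among all genes tested, 4.04% rose and 5.04% fell. ELK1, a MAP kinase target, was measured at 60.2, 55.5 and 52.0 CPM with the empty vector and 65.2, 75.3 and 63.8 CPM with ppk1, and rose by 0.28 on the log2 scale (SE 0.08, edgeR adjusted p 0.013). ELK4, another ternary complex factor, was measured at 125.0, 98.5 and 98.0 CPM with the empty vector and 107.2, 71.5 and 88.8 CPM with ppk1. Its log2 fold change was -0.275 (SE 0.08, edgeR adjusted p 0.014). The ELK1 groups did not overlap, while those of ELK4 did, although ELK4 was lower in all 3 pairs. Neither passed without the block (adjusted p 0.1 and 0.3) or without replicate C (0.61 and 0.67).

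The MRTF genes did not pass the test. MRTFA, listed as MKL1, was at 42.3 ± 3.26 and 44.9 ± 1.56 CPM (mean ± SD, n = 3 libraries). Its log2 fold change was 0.09 (edgeR adjusted p 0.52). MRTFB, listed as MKL2, was at 50.6 ± 1.42 and 44.6 ± 1.63 CPM, and its ppk1 libraries lay wholly below the empty vector libraries (log2 fold change -0.18, SE 0.08, adjusted p 0.12). Such a separation was found for 12.6% of all genes tested. ELK3 had a log2 fold change of 0.135 (adjusted p 0.33). MYOCD, the heart and smooth muscle cofactor, had at most 8 counts in any library and was not tested. RNA levels do not show where the MRTF proteins were or whether the ELK proteins were phosphorylated.

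Among 37 other genes known as MRTF and SRF targets, 34 were tested. Of these 5 rose and 2 fell, where 4.04% and 5.04% of all genes did, and 27 did not pass. A positive log2 fold change was found for 29 of the 34, and for 53.1% of all genes tested. The median was 0.145. The rises were MYL6 (0.35), an essential myosin light chain, ZYX (0.33), the adhesion protein zyxin, CNN2 (0.28), calponin 2, PDLIM7 (0.25), an actin-associated adaptor, and TAGLN2 (0.23), a transgelin of non-muscle cells. TAGLN2 lay outside the rule for naming genes and was named after its values were seen. Without the block or without replicate C, 0 of the 5 passed edgeR's test. With upper-quartile scaling neither PDLIM7 (edgeR adjusted p 0.083) nor TAGLN2 passed. PDLIM7 also did not pass with a filter of 50 counts on average (0.052), thinning (0.07), without replicate D (0.29) or in DESeq2 (0.11). CNN2 did not pass in DESeq2 (0.062). The MYL6 groups overlapped, with the empty vector library D at 211.6 CPM and the ppk1 library B at 207.8 CPM. ACTN4 (log2 fold change 0.22, adjusted p 0.051) and FLNC (0.12, adjusted p 0.41), relatives of ACTN1 and FLNA, did not pass. Both were also picked out after their values were seen. MYH10, a non-muscle myosin heavy chain and the gene of the list with the highest CPM (not corrected for length), had a log2 fold change of 0.12 (adjusted p 0.33).

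The 2 genes of this list that fell were ACTA2 and LMOD1. ACTA2, which encodes smooth muscle alpha actin, was measured at 18.7, 16.1 and 14.2 CPM in the empty vector libraries B, C and D and at 11.1, 9.14 and 7.63 CPM in the ppk1 libraries. All ppk1 libraries lay below all empty vector libraries, and the pairs differed by -0.75, -0.82 and -0.89 on the log2 scale. The log2 fold change was -0.82 (SE 0.09, edgeR adjusted p 5.7e-09), and ACTA2 passed in all 12 alternatives. ACTB had 44.2 to 53.8 times the counts of ACTA2 with the empty vector and 91.0 to 145.6 times with ppk1. LMOD1, which encodes leiomodin 1, a filament nucleator of smooth muscle, fell by 0.57 on the log2 scale (SE 0.11, adjusted p 0.00015). Its levels were 10.5, 10.2 and 9.40 CPM with the empty vector and 6.84, 5.82 and 7.68 CPM with ppk1. LMOD1 did not pass without replicate C (adjusted p 0.067).

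ACTA2 shares 12.8% of its exon sequence with FAS and 17.3% with ACTA2-AS1, both on the opposite strand. FAS, a death receptor gene, was lower as well, with 10.9, 10.3 and 13.3 CPM against 7.5, 8.14 and 7.51 CPM (log2 fold change -0.57, edgeR adjusted p 9.7e-05), and ACTA2-AS1 was at 0.29 CPM or less in every library. The library kit keeps the strand, but the counting setting is not given in the sources used here, so the share of reads that each gene could have lent the other was not tested. ACTA1, the skeletal muscle actin gene, was low, at 0.68 to 0.85 CPM with the empty vector and 0.91 to 1.41 CPM with ppk1 (log2 fold change 0.60, SE 0.22, adjusted p 0.072). ACTC1 and ACTG2, the heart and enteric muscle actins, had too few counts to be tested. The 6 smooth muscle markers, of which SMTN and LMOD1 gave most of the counts, summed to between 31.7 and 39.5 CPM with the empty vector and between 31.6 and 31.8 CPM with ppk1. Of the 5 tested, LMOD1 fell and 4 did not pass. SMTN had a log2 fold change of -0.11 (adjusted p 0.44) and MYH11 one of -0.41 (adjusted p 0.5). CNN1 (0.59, adjusted p 0.29) and DES (0.61, adjusted p 0.32) were on the positive side, at no more than 26 counts in any library.

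**Figure D4:**
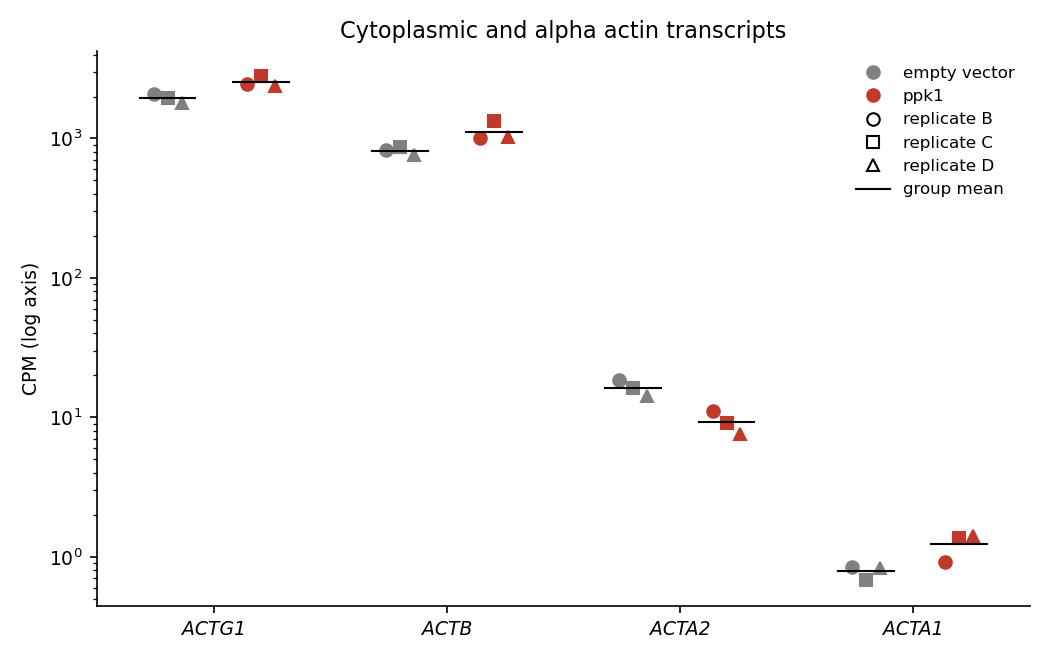
CPM on a log axis of 4 actin genes in each library (grey empty vector, red ppk1, symbols for the replicate letters, bars for group means). ACTG1 and ACTB are higher and ACTA2 lower in all 3 ppk1 libraries, and ACTA1 lies near 1 CPM.

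Of 12 immediate early genes known as ternary complex targets of SRF, 11 were tested, 7 rose and 0 fell, with a median log2 fold change of 0.42. The share of all genes that rose was 4.04%. EGR1, whose promoter window held 2 CArG boxes, was at 13.1 ± 1.96 and 29.7 ± 1.23 CPM (mean ± SD, n = 3 libraries) and rose by 1.19 on the log2 scale (SE 0.09, edgeR adjusted p 1.4e-14). No match was found in the windows of FOSB, FOS and JUNB, which also rose. EGR2 had a match in 1 of its 3 windows and did not pass (log2 fold change 0.42, edgeR adjusted p 0.13). FOSB (0.70), EGR3 (0.85), ARC (0.63), DUSP5 (0.45), FOS (0.35) and JUNB (0.28) also rose, and 3 genes of the list were called without the block, where 0.455% of all genes rose. DUSP5 and JUNB did not pass when any one pair was left out (adjusted p 0.05 to 0.11 and 0.077 to 0.16) or in DESeq2 (0.18 and 0.17). JUNB also did not pass with upper-quartile scaling (0.094), the stricter filter (0.057) or thinning (0.059). FOS did not pass with that scaling, that filter or thinning, nor in DESeq2, without the block, or with pair B or D left out. The FOS groups overlapped, at 5.728 to 7.159 CPM with the empty vector and 7.156 to 9.118 CPM with ppk1. Pair C of FOS differed by only 0.06 on the log2 scale. FOS and EGR2 were named after their values were seen. MCL1, the gene of the list with the highest CPM, had a log2 fold change of 0.21 (adjusted p 0.064). These values stand beside those of the cytoskeletal genes, whose rises were at most 0.44, but the difference between the lists was not tested.

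Of 20 genes of the Arp2/3 complex and its WAVE activators, which build branched actin networks, 2 rose and 0 fell, with a median of 0.08. As a background, 4.04% of all genes rose. They were the Arp2/3 subunits ARPC4 (0.42, SE 0.08, edgeR adjusted p 0.00014) and ARPC1B (0.365, SE 0.08, edgeR adjusted p 0.00094). ARPC4 was at 29.2, 31.4 and 30.1 CPM with the empty vector and at 35.1, 47.7 and 39.7 CPM with ppk1. Both passed without the block and neither without replicate C (adjusted p 0.17 and 0.11). In stretches of 50 bases, ARPC4 shares 13.1% and ARPC1B 28.2% of its transcript sequence with other genes. Each shares most with an overlapping read-through gene on the same strand, so both levels are uncertain. ARPC4 also shares 13.3% of its exon sequence with TADA3 on the opposite strand. ACTR2, the gene of the list with the highest CPM, had a log2 fold change of 0.13 (adjusted p 0.31).

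**Figure D5:**
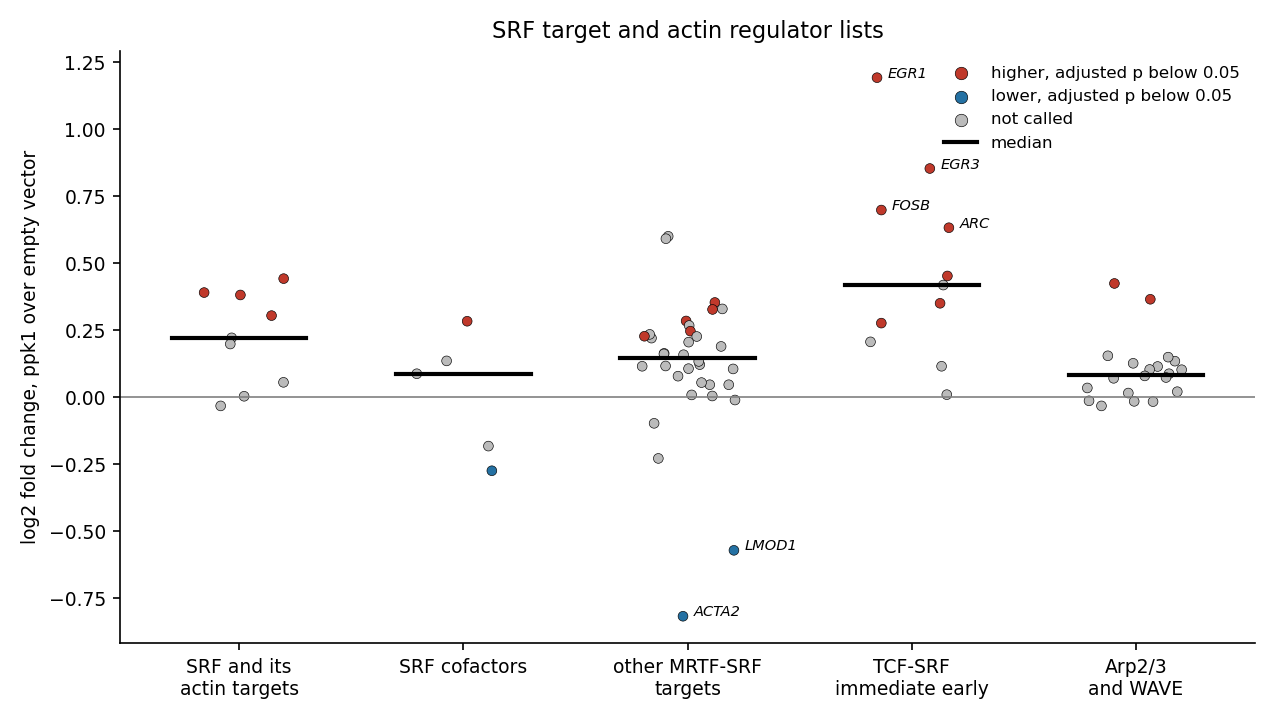
Log2 fold change of every tested gene of 5 lists, with red and blue for an adjusted p below 0.05 (higher and lower), grey for genes not called, and black bars for list medians. The medians run from 0.08 for the Arp2/3 list to 0.42 for the immediate early genes, and ACTA2 and LMOD1 lie lowest.

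Across the whole table, a CArG box in a promoter window was rare. Of 12561 tested genes with a window, 194 had at least 1 box, of which 5.67% rose and 6.7% fell. Among the 12367 without one, 4.36% rose and 5.35% fell. The median log2 fold changes were 0.036 and 0.015. These shares are descriptions, and the difference was not tested. SRF, ACTG1, FLNA, CNN2 and EGR1 are among the 11 genes with a box that rose, and 13 genes with a box fell. The other tested members and list genes found with a box, markers aside, did not pass. They were ACTN1, FHL2, ACTA1, FHL1, TES, TGFB1I1, TPM4 and EGR2.

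The genes whose log2 CPM followed that of SRF most closely over the 6 libraries were PYCR1 (Pearson r 0.998), BRAT1 (0.996), SNN (0.995), PPM1F (0.995) and PROSER3 (0.994), out of 13769 genes compared. Many genes ran in parallel with SRF: 7.38% of those compared had an r above 0.9, and the points share their libraries and depth. BRAT1 (log2 fold change 0.24, adjusted p 0.038) and PROSER3 (0.34, adjusted p 0.0047) rose, while PYCR1, a proline synthesis enzyme gene, did not pass (0.15, adjusted p 0.22). Among the cytoskeletal genes, r with SRF was 0.97 for FLNA, 0.94 for ACTG1, 0.88 for ACTB, 0.85 for ACTN1 and 0.79 for TPM1. It was 0.37 for TAGLN, -0.08 for VCL and -0.23 for FHL2. The values are given as a description of 6 libraries in 2 groups.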

How the data were processed

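RNA of 6 HEK293T libraries was measured by poly(A)-selected sequencing with a directional kit, per the labels' protocols. The authors deposited raw counts per gene. STAR and HTSeq are named among the tools in the submitters' processing notes, with no role. The genome build, annotation, strand setting and handling of multiply mapped reads are not given in the sources used here. All 6 columns matched a sample by title, and 0 rows named no gene.

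From the counts, genes passing filterByExpr (minimum count 10) were tested with edgeR 4.0.16 (glmQLFit, glmQLFTest, TMM scaling, R 4.3.3), with the letter as a block and Benjamini-Hochberg adjustment at 0.05. SEs are the absolute log2 fold change over the root of F. Pair differences use log2 CPM with a prior count of 2. The pairing comes from the series' design text. Deviations from group means correlated at 0.109 (B), 0.135 (C) and 0.0476 (D) within letters and between -0.12 and -0.00506 across letters. P-values of the main fit measure the spread that remains within the matched pairs after the block. Information on that spread is shared among genes, so the SEs of SRF and FLNA do not reflect their own pair differences alone.

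Alternatives were RLE and upper-quartile scaling, no filter, a mean of at least 50 counts, no block, each pair left out, thinning, robust dispersion, DESeq2 1.42.0 and, added later, GC and length offsets. GENCODE release 29 gave lengths, GC and overlaps for 57447 of 58051 identifiers (98.96%). Named genes are the 10 members, all cofactors, and, per list, up to 6 called genes and the one with the highest CPM. For SRF, the 5 genes with the highest r (mean count 50 or more, no clone name) are also given. The members and lists were chosen with earlier results of these data known. A further gene list is not reported here.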

Additional observations from a re-analysis of the deposited data

How the results depend on the processing

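How many genes passed changed with the block and with replicate C. In place of 1777 genes (791 higher, 986 lower), 470 were called with no replicate block (89 and 381), 755 with DESeq2 (324 and 431) and 2960 with GC and length offsets (1568 higher). Upper-quartile scaling called 422 higher. Leaving out each pair gave 406 to 2435 calls (82 to 1263 higher, 324 to 1172 lower). Of the 9 genes tested, 4 were called as reported, 2 with no replicate block, and from 0 (without C) to 5 (without B, with ACTN1 added) when a pair was left out. The cause was not tested.

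Among the 31 named genes, FHL2 and TAGLN, both near 0, changed sign. FHL2 (0.003) was -0.00441 with RLE scaling, -0.0191 with upper-quartile scaling, -0.00388 with the stricter filter, -0.0017 after thinning and -0.000877 in DESeq2, and ran from -0.0402 to 0.0259 when a pair was left out. TAGLN (-0.03) ran from -0.186 to 0.0839. Of 372 values of 31 named genes under 12 alternatives, 318 kept direction and call, 42 lost the call, 5 gained it and 7 changed sign. Most losses came with no replicate block (11) and without replicate C (15).

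In the lists, higher calls among the other MRTF targets (5) were 3 with upper-quartile scaling and with DESeq2, 8 with no filter, 12 with GC and length offsets and 0 to 11 when a pair was left out. Immediate early genes (7) gave 3 with no block, 4 with DESeq2 and 4 to 5 when a pair was left out. The Arp2/3 list (2) gave 8 with the offsets and 0 without replicate C. The share of all genes that rose moved as well, from 4.04% as reported to 8.06% with the offsets and 0.455% with no block. It was 2.16% with upper-quartile scaling, 1.89% with DESeq2 and 1.95% with no filter. Without B, C or D it was 6.5%, 0.415% and 3.37%. The summed ACTB and ACTG1 share differed by 0.0608 to 0.0908 percentage points when a pair was left out and by 0.0778 among protein-coding genes, and the ACTB part by 0.435 to 1.09. MYL9, MYOCD, ACTC1, ACTG2, TAGLN3 and EGR4 had too few counts to be tested.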
